A study of Mus musculus with 12 samples.

Results

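The genes described here, 10 genes of iron, copper and zinc handling, were followed through RAW264.7 cells, a mouse macrophage line, with and without lipopolysaccharide (LPS), the bacterial cell wall component that activates macrophages. They were chosen by symbol, with earlier results of these data known. All 10 had a row among the 18190 genes of the deposited expression table. The members are Tfrc, Steap3, Fth1, Ftl1, Ireb2, Cp, Lcn2, Mt1, Mt2 and Mtf1.

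Poly(A) RNA was sequenced from 12 libraries in 4 groups of 3. The groups were shDCLK1 cells with LPS, untreated shDCLK1 cells, control cells with LPS and untreated control cells. The shDCLK1 cells stably express a short hairpin RNA against Dclk1, a kinase gene, and LPS was given at 500 ng/ml for 6 h to cells plated at 200000 per well. The protocol describes the lines as monoclonal and gives the control line a negative control hairpin, although the knockdown entry of the control samples reads "none", and this conflict is not resolved in the sources used here. By the protocol, both lines carry a hairpin and each line is 1 clone. The strain entry of every sample reads C57BL/6, and the RNA extraction text mentions an adipose type, which was not resolved either. Under the protocol's description, differences between the lines cannot be told apart from differences between 2 clones. Whether the 3 libraries of a group came from separate cultures is not given, so p-values measure the spread between libraries, which may be technical.

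Cells take up iron through the transferrin receptor (Tfrc), reduce it in the endosome with the ferrireductase Steap3, and store what they do not use in ferritin, a shell of heavy (Fth1) and light (Ftl1) chains. Iron-regulatory proteins, one of which is the product of Ireb2, bind a short hairpin called the iron-responsive element: in the 5′ untranslated region of ferritin mRNA this blocks translation, and in the 3′ untranslated region of Tfrc mRNA it slows decay. Macrophages are known to withhold iron from microbes during inflammation, with lipocalin 2 (Lcn2) binding bacterial iron carriers, and metallothioneins (Mt1, Mt2), small zinc- and copper-binding proteins, are switched on by the zinc-sensing factor Mtf1.

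The iron-responsive elements are shown because they mark which of the genes carry this hairpin. The GENCODE M21 transcripts (GRCm38) were searched for a C, 5 stem bases, the loop CAGTG followed by any base but G, and 5 bases that pair with the stem. The sites are printed 5′ to 3′ on the gene's strand with 6 flanking bases on each side, and the capitals mark the loop of 6 bases. Tfrc holds 4 in its 3′ untranslated region on the plus strand, at chr16:32631219-32631247, chr16:32631598-32631626, chr16:32631663-32631691 and chr16:32631710-32631738. Fth1 holds 1 in its 5′ untranslated region at chr19:9982732-9982760 on the plus strand, and Ftl1 holds 1 in its 5′ untranslated region at chr7:45459779-45459807 on the minus strand.
Tfrc site 1: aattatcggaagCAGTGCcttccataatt
Tfrc site 2: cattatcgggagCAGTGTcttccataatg
Tfrc site 3: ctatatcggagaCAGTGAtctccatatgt
Tfrc site 4: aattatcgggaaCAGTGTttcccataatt
Fth1 site: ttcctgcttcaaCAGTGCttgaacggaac
Ftl1 site: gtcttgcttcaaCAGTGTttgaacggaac
The pattern was found in the untranslated regions of 3 of the 10 genes, against 123 of 21877 coding genes searched (0.562%) and 79 of 10059 of the genes tested below (0.785%). Looser forms of the element were not searched, so the counts are of this form alone and may miss elements. A match describes the letters and is not a measured binding site. These elements are known to act on translation and on mRNA decay, and the data here measure mRNA levels only.

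The Mt1 and Mt2 promoters are shown because both genes rose with LPS (values below) and lie close together on chromosome 8. The windows run from 250 bases before to 50 bases after a start annotated by RefSeq (GRCm38.p6), at chr8:94178839-94179138 for Mt1 and chr8:94172368-94172667 for Mt2, both on the plus strand. The capitals mark matches to the core of the metal response element, the site Mtf1 is known to bind, searched as TGCACNC and TGCGCNC on both strands.
Mt1: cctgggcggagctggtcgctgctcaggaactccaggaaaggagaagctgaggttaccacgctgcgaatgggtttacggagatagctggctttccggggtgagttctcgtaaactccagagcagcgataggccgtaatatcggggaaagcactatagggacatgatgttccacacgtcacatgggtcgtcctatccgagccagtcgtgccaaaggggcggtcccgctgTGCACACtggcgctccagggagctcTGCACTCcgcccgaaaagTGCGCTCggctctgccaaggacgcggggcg
Mt2: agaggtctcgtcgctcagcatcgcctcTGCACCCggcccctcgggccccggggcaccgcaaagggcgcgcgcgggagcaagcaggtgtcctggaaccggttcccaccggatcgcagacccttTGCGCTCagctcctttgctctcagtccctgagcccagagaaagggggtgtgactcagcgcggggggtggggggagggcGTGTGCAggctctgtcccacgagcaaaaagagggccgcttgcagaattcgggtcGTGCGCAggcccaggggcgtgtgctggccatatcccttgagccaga
The Mt2 window holds 4 such cores and the Mt1 window 3. At least 1 core was present in 25.7% of all 32851 RefSeq promoter windows of this length, and 4 or more in 0.517%. Of the other members, Tfrc had matches, which overlapped each other. The antioxidant response core TGACNNNGC, found in 12.4% of windows, matched in Mt2 alone among the 10 genes. An NF-κB site and the core of the interferon-stimulated response element were each searched in a fixed form, and looser forms were not searched. They matched in 0.411% and 3.44% of all windows, in that order, and in none of the 16 windows of the members. At rates this low, the absence of a match does not show that a member lacks such a site. These counts describe the letters of the windows only.

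In GRCm38, GENCODE M21 places Tfrc at chr16:32608920-32632794, Fth1 at chr19:9980598-9985098, Ireb2 at chr9:54863789-54912530, Cp at chr3:19957054-20009145 and Mtf1 at chr4:124802104-124849800, all on the plus strand. Steap3 at chr1:120190757-120272705, Ftl1 at chr7:45457944-45459884 and Lcn2 at chr2:32384633-32388252 are on the minus strand. Mt2 at chr8:94172664-94173568 and Mt1 at chr8:94179082-94180327 lie in the same order on the plus strand. These positions are those of the reference and not of the deposited table, which gives none.

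Values are FPKM, fragment counts scaled to transcript length and sequencing depth, and fold changes below are ratios of mean FPKM unless they are called log2 changes. Log2 changes are differences of log2(FPKM + 1) fitted with limma over the 11052 genes that reached 1 FPKM in 3 libraries or more, and a gene was called at a Benjamini-Hochberg adjusted p under 0.05. All 10 members passed this filter, but Lcn2 did so only through the LPS libraries and Steap3 only through the untreated ones, so both had to differ between the states. The relative depth of the libraries was 0.978 to 1.01, read from genes whose values were whole multiples of their lowest value within 3%. That rule drops genes that differ by more, so a larger difference in depth could not have shown. Replicates correlated across genes at r of 0.993 to 0.996. Macrophage markers summed to 4469 to 4694 FPKM in shDCLK1 cells with LPS and 1797 to 1845 in untreated shDCLK1 cells. The sums were 3812 to 3856 FPKM in control cells with LPS and 1133 to 1142 in untreated control cells. Cd14 carried most of the sum with LPS, at 2527 to 2663 FPKM in shDCLK1 cells and 2714 to 2752 FPKM in control cells. The macrophage receptor gene Csf1r went the other way, at 63.69 to 65.61 FPKM in shDCLK1 cells with LPS and 259 to 270.4 FPKM in untreated shDCLK1 cells, and at 15.47 to 16.20 FPKM in control cells with LPS and 242 to 254 FPKM in untreated control cells. Cd68 was also lower with LPS in both lines. Most of the difference between the lines in these sums was Lyz2. It lay at 928 to 1013 FPKM in shDCLK1 cells with LPS and 632 to 650 FPKM in untreated shDCLK1 cells. In control cells it lay at 201 to 211 FPKM with LPS and 94.51 to 101.4 FPKM untreated. With LPS, Csf1r, Cd68 and Adgre1 were also higher in shDCLK1 than in control cells, while Cd14, Fcgr1, Ptprc and Itgam were lower. No fibroblast, epithelial or hepatocyte marker with a row exceeded 0.4 FPKM. Of the lymphocyte and erythroid markers, Pax5 reached 0.58 to 1.3 FPKM with LPS and 0 to 0.09 FPKM untreated, and Hba-a1 reached 1.07 FPKM. Their part in the results was not tested. Dclk1 itself was listed at 0 or 0.01 FPKM in every library, those of the control line included, so the knockdown could not be checked from these values.

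LPS moved most genes of the table. In shDCLK1 cells 84.6% of the tested genes were called (24.9% higher, 59.7% lower), and in control cells 86.9% (24.8% higher, 62.1% lower). The median log2 change over all tested genes was −0.29 in shDCLK1 cells and −0.38 in control cells. When libraries were scaled by the median of ratios instead, calls split evenly, with 4548 genes higher and 4562 lower in shDCLK1 cells and 4708 higher and 4728 lower in control cells. Small LPS changes of single genes thus depend on the scaling, and are marked where they do.

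Of the 10 members, 7 were higher with LPS, 2 were lower and 1 was not called in shDCLK1 cells, and the counts in control cells were the same. Without Lcn2 and Steap3, whose direction the filter fixed, 6 of 8 were higher and 1 lower in each line, beside the 24.9% and 24.8% higher and 59.7% and 62.1% lower of all tested genes. Over these 8 the median log2 change was 0.62 in shDCLK1 cells and 0.60 in control cells. The members were chosen with earlier results of these data known, so the shares describe these genes and do not test them as a set. Between the lines, 45.0% of tested genes were called without LPS and 48.6% with LPS. Among the members 3 were higher and 2 lower in untreated shDCLK1 cells than in untreated control cells, beside 21.4% and 23.6% of all tested genes. With LPS, 3 were higher and 3 lower in shDCLK1 cells, beside 34.3% and 14.3%. The LPS response differed between the lines in 49.4% of tested genes and in 9 of the members, by the interaction term of the fit. Of these, 4 were positive and 5 negative, beside 32.6% and 16.9% of all tested genes. Without Lcn2 and Steap3, 3 of the other 8 had a positive and 4 a negative interaction. Between the lines with LPS, 2 of these 8 were higher and 2 lower in shDCLK1 cells. The calls between lines of Mt1, Mt2 and Ireb2 rest on small differences, given below.

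**Figure D1:**
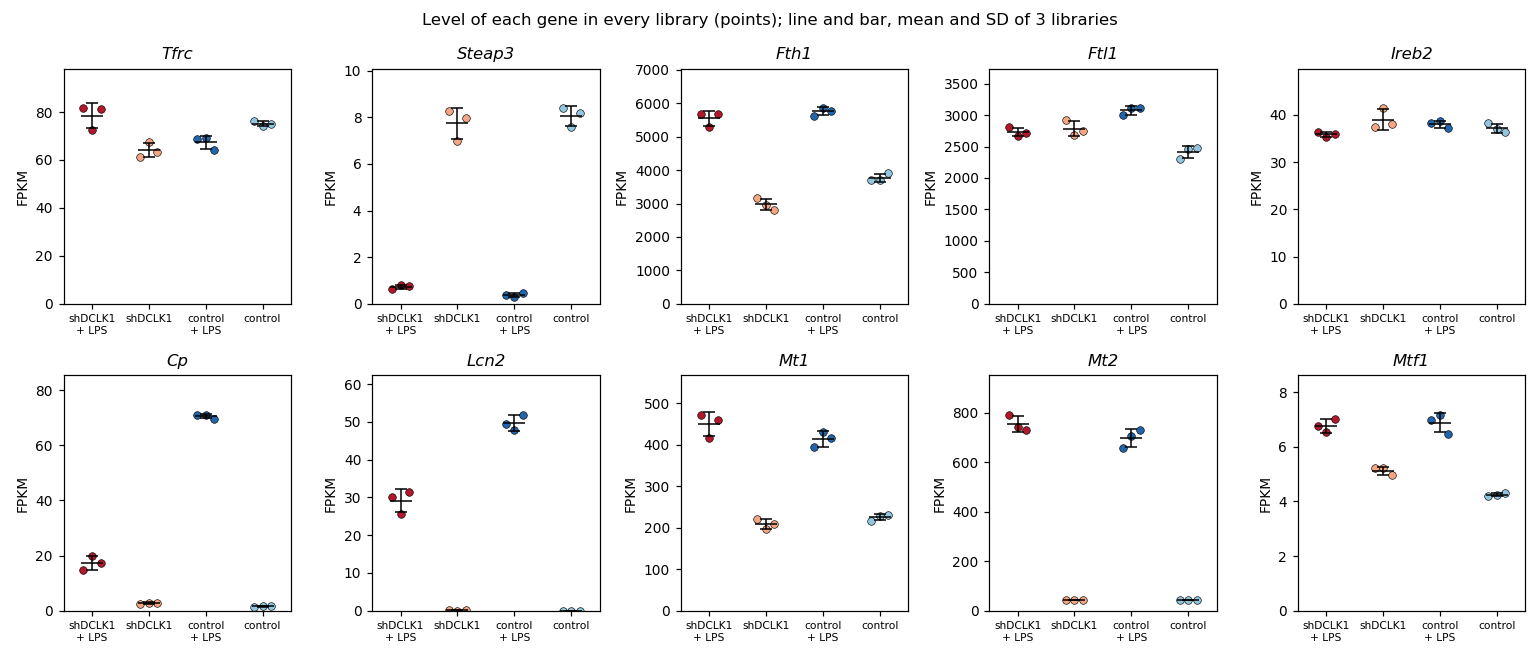
FPKM of the 10 genes in each of the 12 libraries (points), with the mean and SD of 3 libraries per group (line and bar). Each panel has its own axis from 0; Cp, Lcn2, Mt1 and Mt2 sit higher in the LPS groups and Steap3 lower, while Ireb2 stays between 35.37 and 41.52 FPKM.

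Iron uptake was represented by Tfrc and Steap3, which moved by very different amounts. Tfrc measured 81.78, 72.71 and 81.14 FPKM in shDCLK1 cells with LPS and 61.42, 67.38 and 63.47 FPKM in untreated shDCLK1 cells. Control cells had 68.96, 69.06 and 64.25 FPKM with LPS and 76.28, 74.12 and 75.13 FPKM untreated. The libraries did not overlap in either line, but the order of the states was opposite: with LPS, Tfrc was higher in shDCLK1 cells and lower in control cells. Its mean with LPS was 1.23 times the untreated mean in shDCLK1 cells (log2 change 0.29, SE 0.0483, limma adjusted p = 1.02e-04). In control cells the ratio was 0.897 (log2 change −0.16, adjusted p = 0.00892). The fall in control cells was also called with quantile normalization (−0.17) and with equal FPKM sums (−0.23), but with median-of-ratios scaling the change turned to 0.26 (adjusted p = 1.92e-04). It was smaller than the median fall of all genes, −0.38.

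The difference between the lines in the Tfrc response held under every setting tried. The log2 change was larger in shDCLK1 cells by 0.44 (SE 0.0682, adjusted p = 1.89e-04). The lines also differed in opposite directions within each state: shDCLK1 cells had 1.16 times the control mean with LPS (log2 0.22, adjusted p = 0.00273) and 0.853 times the control mean without it (log2 −0.23, adjusted p = 0.00217).

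Steap3 lost most of its mRNA with LPS. It measured 0.64, 0.80 and 0.75 FPKM in shDCLK1 cells with LPS, against 8.29, 7.00 and 7.96 FPKM in untreated shDCLK1 cells. In control cells the values were 0.38, 0.29 and 0.45 FPKM with LPS and 8.41, 7.58 and 8.18 FPKM untreated. Every LPS library lay under 1 FPKM and every untreated library at 7.00 FPKM or more. The LPS mean was 0.0942 of the untreated mean in shDCLK1 cells and 0.0463 in control cells. The fitted log2 changes were −2.34 in shDCLK1 cells and −2.72 in control cells with the pseudocount of 1, and −3.24 and −4.12 with a pseudocount of 0.1. They are given as a description, since Steap3 passed the filter through the untreated libraries alone.

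With LPS, the Steap3 mean in shDCLK1 cells was 1.96 times that in control cells, with no overlap of libraries (log2 0.33, adjusted p = 0.00223). The LPS change was less deep by 0.39 (SE 0.102, adjusted p = 0.00778). Both rest on LPS values of 0.29 to 0.80 FPKM, under the filter of 1 FPKM, and are given as a description. Over the settings other than leaving out a library, the difference ranged from 0.18 to 0.82 on the log2 scale and the interaction from 0.24 to 0.88. Neither passed with quantile normalization (adjusted p = 0.0861 and 0.107). Without LPS the lines overlapped (log2 −0.05, adjusted p = 0.593).

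The ferritin chains were among the most abundant mRNAs of these cells, with Fth1 ranked 2nd to 5th of all genes in every library and Ftl1 ranked 5th to 9th. Fth1 measured 5669, 5280 and 5691 FPKM in shDCLK1 cells with LPS and 3154, 2954 and 2814 FPKM in untreated shDCLK1 cells. In control cells the Fth1 level was 5629, 5864 and 5774 FPKM with LPS and 3697, 3694 and 3903 FPKM untreated. All LPS libraries lay above all untreated ones, and the 2 LPS groups overlapped each other.

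The Fth1 mean with LPS was 1.87 times the untreated mean in shDCLK1 cells (log2 0.90, SE 0.0460, adjusted p = 9.10e-10) and 1.53 times in control cells (log2 0.61, adjusted p = 3.67e-08). Quantile normalization turned both changes, to −0.14 and −0.39: it gives every library the same set of values, so a gene near the top can move only with its rank. The LPS change was larger in shDCLK1 cells by 0.29 (SE 0.0651, adjusted p = 0.00299), a call lost when the filter on low values was dropped (adjusted p = 0.0578). That difference came with a lower untreated level in shDCLK1 cells, 0.790 of the control mean (log2 −0.34, adjusted p = 7.67e-05; adjusted p = 0.221 with quantile normalization). With LPS the ratio was 0.964 and was not called (log2 −0.05, 95% interval −0.15 to 0.05), while median-of-ratios scaling gave −0.15 (adjusted p = 0.0236) and quantile normalization 0.18 (adjusted p = 0.00510).

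Ftl1 behaved differently in the lines. It measured 2807, 2669 and 2717 FPKM in shDCLK1 cells with LPS and 2916, 2688 and 2753 FPKM in untreated shDCLK1 cells, and these libraries overlapped (log2 −0.03, SE 0.0399, 95% interval −0.11 to 0.06, adjusted p = 0.523). The Ftl1 value in shDCLK1 cells moved with the scaling, to 0.30 with median-of-ratios scaling and −0.39 with quantile normalization. Its control values were 2996, 3116 and 3112 FPKM with LPS and 2303, 2461 and 2472 FPKM untreated. There every LPS library was above every untreated one, by 1.27 times (log2 0.35, adjusted p = 2.47e-06), although quantile normalization gave −0.05 (adjusted p = 0.466).

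The Ftl1 response was smaller in shDCLK1 cells by 0.38 on the log2 scale (−0.38, SE 0.0564, adjusted p = 1.48e-04). Untreated shDCLK1 cells had 1.15 times the Ftl1 of untreated control cells (adjusted p = 0.00112). With LPS they had 0.888 times (adjusted p = 0.00360), a difference that turned to 0.07 on the log2 scale under quantile normalization (adjusted p = 0.351). How reads shared with ferritin pseudogenes were divided is not stated, so both ferritin levels are uncertain in that respect.

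The chain ratio does not depend on a factor that scales a whole library. Fth1 over Ftl1 was 2.02, 1.98 and 2.09 in shDCLK1 cells with LPS and 1.08, 1.10 and 1.02 in untreated shDCLK1 cells. In control cells it was 1.88, 1.88 and 1.86 with LPS and 1.61, 1.50 and 1.58 untreated. The ratio was thus highest in shDCLK1 cells with LPS and lowest in untreated shDCLK1 cells, with both control groups between them, and no 2 groups overlapped. Each of the 4 comparisons gave a two-sided p = 0.1 in an exact permutation test, the smallest that 3 libraries against 3 can give. Summed, the chains made up 1.70 ± 0.0680% of all FPKM in shDCLK1 cells with LPS and 1.24 ± 0.0387% in untreated shDCLK1 cells. The share was 1.79 ± 0.0262% in control cells with LPS and 1.32 ± 0.0285% in untreated control cells (SD, n = 3 each).

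**Figure D2:**
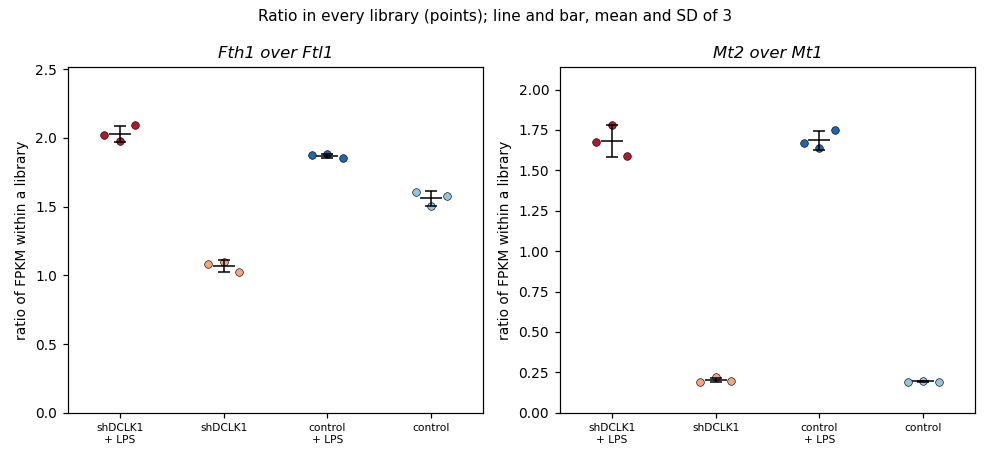
Ratio of FPKM within each library (points) for Fth1 over Ftl1 (left) and Mt2 over Mt1 (right), with the mean and SD of 3 libraries (line and bar). The ferritin ratio spans 1.02 to 2.09 and separates all 4 groups, while the metallothionein ratio separates LPS from untreated libraries alone.

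Ireb2, which encodes iron-regulatory protein 2, varied least of the 10 between its group means. It averaged 35.9 ± 0.487 FPKM in shDCLK1 cells with LPS and 39.0 ± 2.23 FPKM in untreated shDCLK1 cells. It averaged 38.0 ± 0.779 FPKM in control cells with LPS and 37.2 ± 0.938 FPKM in untreated control cells (SD, n = 3 each). The fall in shDCLK1 cells was small (log2 −0.11, SE 0.0384, adjusted p = 0.0145). It was lost without the second untreated shDCLK1 library, the highest of all at 41.52 FPKM (adjusted p = 0.0682), and it turned to 0.21 with median-of-ratios scaling and to 0.05 with quantile normalization. In control cells Ireb2 was not called (log2 0.03, 95% interval −0.05 to 0.11), but was called higher with median-of-ratios scaling (0.45) and quantile normalization (0.22). The interaction of −0.15 (SE 0.0542, adjusted p = 0.0423) was lost on leaving out any of 8 of the 12 libraries, namely all 3 of shDCLK1 with LPS, shDCLK1 number 2, control with LPS numbers 1 and 2, and control numbers 2 and 3 (adjusted p = 0.0525 to 0.0920). It was also lost with the replicate number as a block, no filter, no trend and equal FPKM sums (adjusted p = 0.0526, 0.0587, 0.0602 and 0.0692). The lines were not called apart in either state, although with LPS every shDCLK1 library was below every control library (log2 −0.08, 95% interval −0.16 to 0.00, adjusted p = 0.102). Leaving out untreated shDCLK1 number 2 made it a call (adjusted p = 0.0381), as did median-of-ratios scaling (adjusted p = 0.00272) and quantile normalization (adjusted p = 0.0434).

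**Figure D3:**
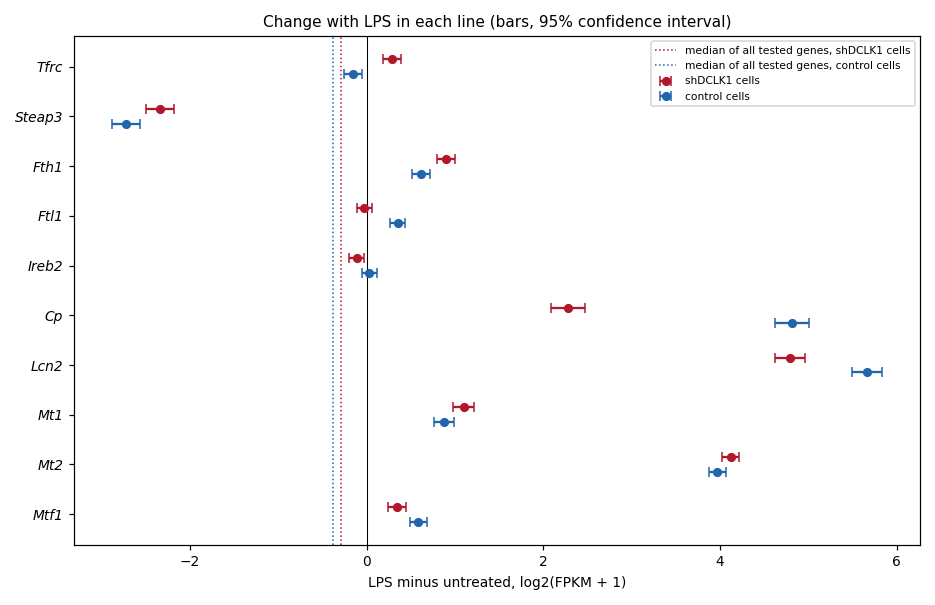
Log2 change with LPS in shDCLK1 cells (red, upper) and control cells (blue, lower) for each gene, on log2(FPKM + 1), with 95% intervals from the limma fit. Dotted lines mark the median of all tested genes at −0.29 and −0.38; the lines sit furthest apart at Cp, at 2.28 and 4.81.

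Cp encodes ceruloplasmin, a copper-carrying ferroxidase best known from liver plasma protein and also made by macrophages. It measured 14.80, 19.85 and 17.22 FPKM in shDCLK1 cells with LPS and 2.48, 2.90 and 2.87 FPKM in untreated shDCLK1 cells. Control cells reached 71.09, 71.01 and 69.61 FPKM with LPS and had 1.32, 1.63 and 1.70 FPKM untreated. No groups overlapped: control cells were the highest with LPS and the lowest without.

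LPS raised Cp in both lines, with a mean 6.29 times the untreated one in shDCLK1 cells (log2 2.28, SE 0.0885, adjusted p = 5.76e-11) and 45.5 times in control cells (log2 4.81, adjusted p = 2.52e-14). The response was smaller in shDCLK1 cells (interaction −2.54 on the log2 scale, SE 0.125, adjusted p = 1.07e-08), the 10th lowest interaction of 11052 genes. With LPS the shDCLK1 mean was 0.245 of the control mean (log2 −1.98, adjusted p = 4.41e-09), the third lowest difference of all tested genes. Without LPS it was 1.77 times the control mean (log2 0.56, adjusted p = 2.71e-04).

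Cp overlaps Hps3 on the opposite strand in GENCODE M21, and the use of strand in counting is not stated. Hps3, a lysosome-related organelle gene, lay at 8.66 to 9.31 FPKM in shDCLK1 cells with LPS and 17.18 to 18.18 FPKM in untreated shDCLK1 cells. It lay at 8.69 to 8.98 FPKM in control cells with LPS and 20.50 to 21.49 FPKM in untreated control cells, lower with LPS in both lines. Whether reads of Hps3 entered the Cp values was not tested. The hepatocyte markers with a row, Serpina1a and Apoa1, stayed at or under 0.4 FPKM in every library.

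Lcn2 was near 0 without LPS. It measured 30.12, 25.62 and 31.44 FPKM in shDCLK1 cells with LPS, against 0.06, 0 and 0.19 FPKM in untreated shDCLK1 cells. Lcn2 in control cells measured 49.32, 47.94 and 51.91 FPKM with LPS and was listed at 0 in the 3 untreated libraries. No ratio to the untreated level is given for this reason, and the fitted log2 changes of 4.79 in shDCLK1 cells and 5.66 in control cells depend on the pseudocount of 1.

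Between lines with LPS, all shDCLK1 libraries lay below all control libraries. The Lcn2 mean was 0.584 of the control mean (log2 −0.76, SE 0.0770, adjusted p = 5.66e-06), and the interaction was −0.87 (SE 0.109, adjusted p = 3.65e-05). The interaction rests on untreated values at or near 0, and ranged from −1.52 to −0.84 over the settings other than leaving out a library. Lcn2 is also known from neutrophil granules. Of 5 neutrophil markers 3 had a row, and their sum was 2.07 to 4.39 FPKM in shDCLK1 cells with LPS and 0 in untreated shDCLK1 cells. The sum was 1.74 to 2.06 FPKM in control cells with LPS and 0 to 0.06 FPKM in untreated control cells. Nearly all of it was S100a8, while the defining granule gene Mpo stayed at or under 0.02 FPKM. S100a8 measured 4.37, 2.05 and 2.52 FPKM in shDCLK1 cells with LPS. It measured 2.06, 1.90 and 1.74 FPKM in control cells with LPS, and the libraries overlapped. Whether these markers bear on the Lcn2 difference was not tested. In bulk RNA, fewer cells making a transcript and less of it per cell cannot be told apart.

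Both metallothionein genes rose with LPS in both lines, and Mt2 by much more than Mt1. Mt1 measured 473, 417 and 460 FPKM in shDCLK1 cells with LPS and 222, 197 and 210.1 FPKM in untreated shDCLK1 cells. In control cells it measured 395, 432 and 417 FPKM with LPS and 217, 228 and 230.0 FPKM untreated. LPS libraries lay above untreated ones without overlap, and the lines overlapped in each state. The rise was 2.15-fold in shDCLK1 cells (log2 1.10, SE 0.0537, adjusted p = 5.80e-10) and 1.84-fold in control cells (log2 0.88, adjusted p = 4.33e-09).

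Mt2 measured 793, 743 and 730 FPKM in shDCLK1 cells with LPS and 42.72, 43.25 and 41.48 FPKM in untreated shDCLK1 cells. In control cells it measured 659, 707 and 731 FPKM with LPS and 41.90, 44.95 and 43.93 FPKM untreated. Its rise was 17.8-fold in shDCLK1 cells (log2 4.12, SE 0.0432, adjusted p = 7.65e-16) and 16.0-fold in control cells (log2 3.97, adjusted p = 2.80e-16). Again the states were far apart and the lines overlapped.

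The pair changed places. Mt2 over Mt1 was 1.68, 1.78 and 1.59 in shDCLK1 cells with LPS and 0.192, 0.219 and 0.197 in untreated shDCLK1 cells. In control cells it was 1.67, 1.64 and 1.75 with LPS and 0.193, 0.197 and 0.191 untreated. Mt1 was thus the more abundant mRNA per length in every untreated library and Mt2 in every LPS library. The exact permutation test gave p = 0.1, its smallest value, for LPS against untreated in each line. Between the lines the same exact permutation test gave p = 0.3 without LPS and p = 1.0 with it. The coding sequences of the genes are identical at 145 of 183 bases (79.2%), and the longest run their transcripts share is 20 bases.

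Differences between lines in the metallothioneins were small and unstable. With LPS, Mt2 was 1.08 times higher in shDCLK1 cells (log2 0.11, adjusted p = 0.0486), a call lost in 6 of 9 other settings and on leaving out any of 9 of the 12 libraries, all but shDCLK1 with LPS number 3, control with LPS number 3 and control number 1. It was 0.02 under median-of-ratios scaling (adjusted p = 0.734). Mt1 was not called with LPS (log2 0.12, 95% interval 0.00 to 0.23), and was called without the second shDCLK1 LPS library (log2 0.17, adjusted p = 0.0173). Without LPS neither was called, with 95% intervals of −0.22 to 0.01 for Mt1 and −0.13 to 0.06 for Mt2, although quantile normalization called Mt1 lower in shDCLK1 cells (adjusted p = 0.00737). The Mt1 interaction of 0.22 (SE 0.0759, adjusted p = 0.0294) was lost with median-of-ratios scaling (adjusted p = 0.195), with no filter on low values (adjusted p = 0.0639) and on leaving out shDCLK1 with LPS number 1 or 3, shDCLK1 number 2, control with LPS number 1, or control number 2 or 3 (adjusted p = 0.0583 to 0.0723). That of Mt2, 0.15 (adjusted p = 0.0623), was called without shDCLK1 with LPS number 3, control with LPS number 3 or control number 1 (adjusted p = 0.0473, 0.0316 and 0.0399).

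Mtf1, the zinc-sensing transcription factor, was a low-abundance transcript. It averaged 6.77 ± 0.240 FPKM in shDCLK1 cells with LPS and 5.13 ± 0.147 FPKM in untreated shDCLK1 cells. It averaged 6.89 ± 0.358 FPKM in control cells with LPS and 4.25 ± 0.0458 FPKM in untreated control cells (SD, n = 3 each). LPS libraries lay above untreated libraries in both lines, by 1.32 times in shDCLK1 cells (log2 0.34, SE 0.0454, adjusted p = 1.27e-05) and 1.62 times in control cells (log2 0.59, adjusted p = 4.97e-08). The response was smaller in shDCLK1 cells (interaction −0.25, SE 0.0642, adjusted p = 0.00718), with a higher untreated level in that line (1.21 times, adjusted p = 0.00165) and overlapping libraries with LPS (log2 −0.02, 95% interval −0.12 to 0.08; −0.13 with quantile normalization, adjusted p = 0.0342). Mtf1 overlaps 1110065P20Rik on the opposite strand in GENCODE M21. That gene lay at 6.67 to 9.07 FPKM in shDCLK1 cells with LPS and 12.99 to 16.89 FPKM in untreated shDCLK1 cells, and at 6.71 to 7.46 FPKM in control cells with LPS and 16.62 to 17.72 FPKM in untreated control cells.

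**Figure D4:**
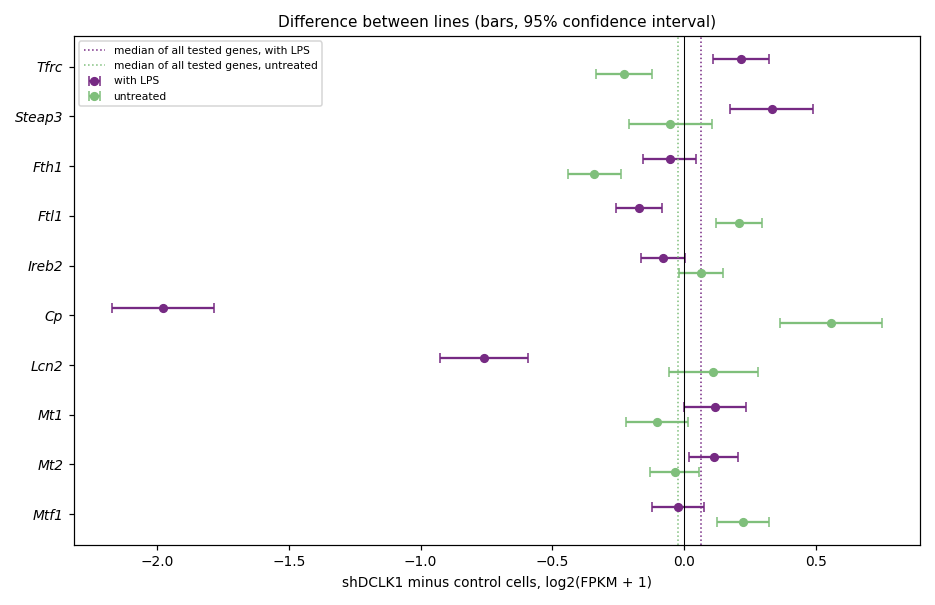
Log2 difference of shDCLK1 minus control cells on log2(FPKM + 1) with LPS (purple, upper) and untreated (green, lower), with 95% intervals from the limma fit. Cp lies at −1.98 with LPS and 0.56 without, and Tfrc at 0.22 and −0.23; dotted lines mark the median of all tested genes.

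The lists of wider metal-handling genes were also chosen with earlier results of these data known. The 6 lists hold 103 genes, of which 96 had a row and 78 were tested, and the 10 members are not among them. With LPS 22 were called higher and 47 lower in shDCLK1 cells, and 23 higher and 49 lower in control cells. These are 28.2% higher and 60.3% lower in shDCLK1 cells and 29.5% higher and 62.8% lower in control cells, close to the shares over all tested genes. Their median log2 change was −0.26 in shDCLK1 cells and −0.37 in control cells, beside −0.29 and −0.38 over all tested genes.

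Among 9 tested genes of iron uptake, endosome and storage, 4 were higher and 5 lower with LPS in shDCLK1 cells, and 5 higher and 4 lower in control cells. These are 55.6% and 44.4% lower, beside 59.7% and 62.1% of all tested genes, and 44.4% and 55.6% higher, beside 24.9% and 24.8%. Slc11a1, which encodes the phagosomal metal transporter Nramp1, averaged 92.4 ± 9.84 FPKM in shDCLK1 cells with LPS and 29.8 ± 0.429 FPKM in untreated shDCLK1 cells. It averaged 52.0 ± 0.790 FPKM in control cells with LPS and 13.4 ± 0.762 FPKM in untreated control cells (SD, n = 3 each). It rose by 1.60 on the log2 scale in shDCLK1 cells and 1.88 in control cells, and was higher in shDCLK1 cells by 0.81 with LPS and 1.10 without (adjusted p = 5.11e-07 and 3.31e-08). Slc39a14, a zinc and iron importer, was at 32.3 ± 1.04 FPKM in shDCLK1 cells with LPS and 50.9 ± 1.01 FPKM in control cells with LPS (log2 −0.64, adjusted p = 2.93e-08). Among list genes averaging 5 FPKM or more, Pcbp2, whose product is an iron chaperone, had the deepest fall, at −0.65 in shDCLK1 cells and −0.70 in control cells, or −0.32 and −0.28 with median-of-ratios scaling.

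Of the 15 tested heme genes, 4 were higher and 9 lower with LPS in shDCLK1 cells, and 5 higher and 10 lower in control cells. The shares lower were 60.0% and 66.7%, beside 59.7% and 62.1% of all tested genes. The shares higher were 26.7% and 33.3%, beside 24.9% and 24.8%. Hmox1, encoding heme oxygenase 1, which frees iron from heme, averaged 134 ± 8.45 FPKM in shDCLK1 cells with LPS and 42.2 ± 1.68 FPKM in untreated shDCLK1 cells. It averaged 78.7 ± 2.77 FPKM in control cells with LPS and 39.3 ± 0.876 FPKM in untreated control cells. The rise was 1.64 on the log2 scale in shDCLK1 cells and 0.99 in control cells, and the interaction was 0.66 (adjusted p = 4.36e-06). Alad, an enzyme of heme synthesis, fell by 1.15 in shDCLK1 cells and by 1.67 in control cells. Of the 6 tested genes of iron export and its regulation, 1 was higher and 5 lower in shDCLK1 cells, and 2 higher and 4 lower in control cells. These few genes were 83.3% and 66.7% lower, beside 59.7% and 62.1% of all tested genes. Quantile normalization left 2 lower in each line. Bach1, encoding a heme-binding repressor, fell by 1.04 on the log2 scale in shDCLK1 cells, and its change was deeper there than in control cells by 0.44 (−0.44, adjusted p = 1.11e-04).

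Of the genes of mitochondrial iron and iron-sulfur cluster assembly, 16 of 21 were lower with LPS in shDCLK1 cells (76.2%) and 18 of 21 in control cells (85.7%), beside 59.7% and 62.1% of all tested genes, with 4 and 2 higher. With median-of-ratios scaling 12 and 13 were lower and 6 higher in each line. The cluster assembly gene Isca2 rose by 0.53 on the log2 scale in shDCLK1 cells and 0.71 in control cells. With LPS, 13 of the 21 were higher in shDCLK1 than in control cells and none lower, beside 34.3% and 14.3% of all tested genes; with median-of-ratios scaling 9 were higher and 3 lower.

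The direction of the copper and zinc lists depended on the scaling. Among 12 tested copper genes 4 were higher and 5 lower with LPS in shDCLK1 cells, and 3 higher and 6 lower in control cells, while median-of-ratios scaling gave 6 higher and 2 lower in each. As deposited, 41.7% and 50.0% of them were lower, beside 59.7% and 62.1% of all tested genes. Slc31a2, a copper transporter of the endosome, averaged 22.8 ± 1.27 FPKM in shDCLK1 cells with LPS and 6.54 ± 0.466 FPKM in untreated shDCLK1 cells. It averaged 19.4 ± 0.595 FPKM in control cells with LPS and 3.44 ± 0.363 FPKM in untreated control cells. Sod1, the copper-zinc superoxide dismutase, fell by 0.78 on the log2 scale in shDCLK1 cells and by 0.94 in control cells. The copper chaperone gene Atox1 was higher in shDCLK1 cells with LPS, at 86.3 ± 7.14 FPKM against 55.9 ± 1.43 FPKM in control cells with LPS (log2 0.61, adjusted p = 1.32e-06). Of 15 zinc transporters, 5 were higher and 7 lower in shDCLK1 cells and 6 higher and 7 lower in control cells. The share lower was 46.7% in each line, beside 59.7% and 62.1% of all tested genes. With median-of-ratios scaling 9 were higher and 2 lower in shDCLK1 cells, and 9 higher and 3 lower in control cells. The zinc importer gene Slc39a1 had the strongest rise among them in shDCLK1 cells, to 95.8 ± 3.88 FPKM with LPS against 62.4 ± 1.42 FPKM untreated. The directions given for the single list genes in these paragraphs, from Slc11a1 to Slc39a1, were the same under median-of-ratios scaling and quantile normalization.

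**Figure D5:**
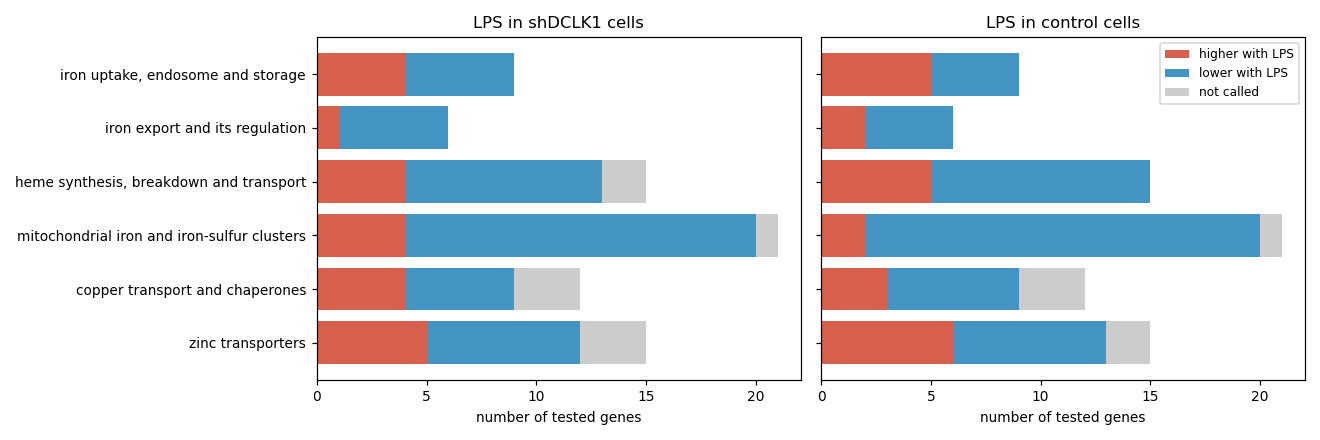
Number of tested genes higher (red), lower (blue) and not called (grey) with LPS in shDCLK1 cells (left) and control cells (right), for 6 lists of metal-handling genes. The mitochondrial list is the longest, with 16 and 18 of 21 lower, and the export list has 5 and 4 of 6 lower. Over all tested genes 59.7% and 62.1% were lower.

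Genes with the most similar pattern were sought for the 5 members whose highest group mean was at least 2 times the lowest, by the distance between their log2(FPKM + 1) values over the 12 libraries after centring. Steap3 lay nearest Kifc5b (distance 0.292, r = 0.998), a mitotic motor gene, and Rfc4 (0.342, r = 0.997), a DNA replication clamp loader gene. Mt2 lay nearest Cd14 (0.368), an LPS co-receptor gene, and Adora2b (0.522), an adenosine receptor gene. Lcn2 lay nearest Procr (0.510) and Slfn1 (0.653), and Mt1 nearest Eml2 (0.286) and Cyth1 (0.294). Cp had no close neighbour, with Hspa1b at 1.35 and Tnfaip3 at 1.43. The 12 libraries share the 4 group means that drive these correlations. Steap3 and Lcn2 also passed the filter through 1 state alone, so a high correlation with genes of the same direction was built in. A shared function of neighbours was not tested.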

How the data were processed

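Poly(A) RNA of 12 RAW264.7 libraries was read from both ends on an Illumina NovaSeq, as stated in the labels' protocols. The authors deposited FPKM with 2 decimals for 18190 genes, and FPKM is not a count, so no count test was run. Of tools, HISAT2 2.0, StringTie 1.3.0 and Bowtie 0.12.2 appear in the submitters' processing notes, and of builds mm9 and mm8, without their roles. The annotation, filters and use of strand are not given in the sources used here. Symbols turned into dates were restored for 27 genes, and 18 entries of a column without a name were not used. Counting error could not be computed. Relative depth came from the steps of low values of 12 genes, kept if whole multiples of their lowest value within 3%. This rule limits the range it can show.

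Groups follow the labels. Log2(FPKM + 1) was fitted with limma 3.58.1 in R 4.3.3, with 1 mean per group, all 12 libraries and a mean trend, on the 11052 genes that reached 1 FPKM in 3 libraries or more. Two-sided p-values were adjusted by the Benjamini-Hochberg method over all tested genes in each of 5 comparisons: LPS against untreated in each line, the lines against each other in each state, and the interaction. The scripts were tested on simulated data. Figures used Python 3.11.15 and matplotlib 3.10.9. The members, lists and tests were chosen with earlier results of these data known. All 10 members are named. From each metal list, the called gene with the strongest rise or fall in a comparison may be named if its mean is 5 FPKM or more. Alternatives were pseudocount, filter, 3 scalings, replicate block, groups in the fit, trend, and leaving out each library. Sequences are from GENCODE M21 transcripts (GRCm38) and RefSeq promoters (GRCm38.p6).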

Additional observations from a re-analysis of the deposited data

Results flagged for a closer look

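The log2 change with LPS differed between the lines for 9 of the 10 genes by the interaction term of the limma fit, beside 49.4% of all tested genes. Lcn2 and Steap3 among them passed the filter through 1 state alone, and without them 3 of 8 were positive and 4 negative. The values are the change in shDCLK1 cells minus that in control cells on log2(FPKM + 1). They were 0.44 for Tfrc, 0.39 for Steap3, 0.29 for Fth1 and 0.22 for Mt1. They were −0.38 for Ftl1, −0.15 for Ireb2, −2.54 for Cp, −0.87 for Lcn2 and −0.25 for Mtf1. Tfrc is the gene among them that was called in both lines with opposite directions as deposited. With median-of-ratios scaling both of its directions were upward. Ftl1 (−0.03 in shDCLK1 cells and 0.35 in control cells) and Ireb2 (−0.11 and 0.03) also had opposite signs. Ftl1 was called in control cells alone and Ireb2 in shDCLK1 cells alone. The values of Mt1 and Ireb2 lost their calls under several settings. Each line is 1 clone, so clone and knockdown cannot be told apart.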

How the results depend on the processing

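Over 21 settings beside the one reported, 971 of 1040 values of the members kept their direction and side of the threshold, 40 lost a call, 16 gained one and 13 changed sign. Of 50 results, 27 held in every setting run. The count of members called ranged over 8 to 10 and 9 to 10 for LPS in shDCLK1 and control cells, 5 to 6 and 5 to 7 between lines untreated and with LPS, and 6 to 10 for the interaction. In the same order, the count of all genes called ranged over 7809 to 10733, 7985 to 11006, 4317 to 5182, 4660 to 5465 and 4848 to 5464. The number of genes tested also changed with the filter. Median-of-ratios scaling turned Ftl1 (0.30) and Ireb2 (0.21) with LPS in shDCLK1 cells and Tfrc (0.26) with LPS in control cells. Quantile normalization turned Fth1 (−0.14) and Ireb2 (0.046) in shDCLK1 cells, Fth1 (−0.39) and Ftl1 (−0.050) in control cells, and Fth1 (0.18) and Ftl1 (0.075) between lines with LPS. Equal FPKM sums turned Ireb2 in control cells (−0.038). Leaving out a library turned Ftl1 in shDCLK1 cells (0.0053 without untreated shDCLK1 number 1; range −0.053 to 0.0053), Steap3 between untreated lines (0.012 without untreated shDCLK1 number 2; range −0.096 to 0.012) and Mtf1 between lines with LPS (0.0044 without control with LPS number 2; range −0.059 to 0.0044). The cause was not tested beyond the construction of the scalings. Over all genes, the share of calls that were higher moved under median-of-ratios scaling to 49.9% from 29.4% in shDCLK1 cells, to 49.9% from 28.5% in control cells and to 47.1% from 70.5% between lines with LPS, and for the interaction to 49.3% from 65.9%. Replicate numbers are shared by the groups but did not pair libraries: 18 same-number pairs correlated at −0.107 to 0.0638, and 6 of 36 comparisons were best with their own number. With a replicate block 9316, 9574, 4804, 5183 and 5296 genes were called in the 5 comparisons, and 9, 9, 5, 5 and 8 members. Counting error could not be separated from replicate spread, and the values near 0 of Lcn2 untreated limit its change: with a pseudocount of 0.1 the untreated lines differed by 0.74 (adjusted p = 0.0453).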

Other observations

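Slc40a1, which encodes ferroportin, the iron exporter, was chosen after its values were seen, because it also carries an iron-responsive element of the pattern searched. It measured 4.44, 3.43 and 4.16 FPKM in shDCLK1 cells with LPS and 6.72, 6.59 and 6.85 FPKM in untreated shDCLK1 cells. In control cells it measured 5.47, 4.99 and 4.84 FPKM with LPS and 7.36, 7.11 and 8.09 FPKM untreated. LPS libraries lay below untreated ones in both lines. The log2 change was −0.63 in shDCLK1 cells (SE 0.0732, limma adjusted p = 3.56e-06) and −0.48 in control cells (adjusted p = 3.97e-05). With median-of-ratios scaling these were −0.35 (adjusted p = 6.62e-04) and −0.12 (adjusted p = 0.157), and with quantile normalization −0.22 (adjusted p = 0.0176) and 0.06 (adjusted p = 0.471), while equal FPKM sums gave −0.69 and −0.54 (adjusted p = 1.33e-06 and 1.37e-05). The fall in control cells was thus called on 2 of the 4 scales.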
